A study of Danio rerio with 32 samples.

Results

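Livers of zebrafish exposed to the low concentration of dichlorvos (DDVP, an organophosphate insecticide) were compared with livers of unexposed fish across every probe of the deposited expression table. The comparison holds 12 of the series' 32 arrays. These are 4 arrays of fish kept for 24 h in water with 6 mg/L DDVP and 8 arrays of control fish at 0 mg/L, the latter in 2 sets of 4. All were kept in flow-through aquaria of the same type. It takes in all 5481 probes of the table. The arrays of the mid (19 mg/L) and high (32 mg/L) concentrations, 4 each and also exposed for 24 h, are drawn on to find what set the mildest exposure apart. These concentrations are those of the labels, which were targets, and the concentrations the authors measured at mid and high were lower. All fish were adult males of the Tübingen strain, 6 to 9 months old by the labels, held at the same temperature and light cycle, and each array was hybridised with liver RNA pooled from several fish, so that array-to-array spread is a spread of pools rather than of individual fish. The low concentration had been chosen from range-finding tests as a level with no observed effect.

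DDVP inhibits acetylcholinesterase and thereby lets acetylcholine accumulate at synapses, but the liver is where the compound is hydrolysed and conjugated, and liver cells answer electrophiles and loss of nutrients through their own transcription factors. Among these, NRF2 drives genes for glutathione synthesis and thiol reduction, ATF4 drives genes for amino acid uptake and synthesis, and glucocorticoid and insulin signals set the balance between fuel storage and fuel release. The liver also secretes the binding proteins that hold insulin-like growth factors (IGF) in the blood, together with the clotting and complement proteins of plasma.

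Of the 5481 probes, 3295 carried a gene symbol, for 2581 genes in all. The table had been reduced by the authors to probes that differed between groups on these same arrays, so the shares below describe a selected table and not the whole transcriptome. Of 13 hepatocyte markers on the array 6 were in the table (agt, ahsg2, apobb.1, cp, fgb and fgg). Their summed log2 level was 17.40 to 17.57 in the controls and 17.34 to 17.55 at low DDVP, and the ranges overlapped. Of these 6, 1 was called as rising at low and 0 as falling. No marker on the lists for exocrine pancreas, erythrocytes, vitellogenin, leukocytes or muscle was in the table, so their levels on these arrays were not analysed here. Of the intestine list 1 of 8 was in the table, apoa4b.1, which was not called at low. It read 14.65 to 14.86 in the controls and 14.28 to 14.72 at low DDVP, with overlap. Of the bile duct and endothelium list, 3 of 8 were in the table and their summed level was 14.42 to 14.81 in the controls and 15.02 to 15.18 at low DDVP, without overlap. Of these 3 (krt18a.1, krt8 and sox9b) 1 was called as rising at low, and their median log2 fold change was 0.23. The keratin krt18a.1 rose by 1.50, and what part cells with these markers had in the results below was not tested. In RNA from whole livers, fewer cells of a type and less RNA per cell cannot be told apart.

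Calls of differential expression required an adjusted p no higher than 0.001 (limma, Benjamini-Hochberg over all probes) together with a change of at least 1.8-fold. By this rule 1531 probes (27.9% of the table) were differentially expressed at low DDVP. Of these, 680 rose (12.4%) and 851 fell (15.5%). The same rule called 3375 probes (61.6%) at mid and 4065 (74.2%) at high, which were set against the same controls. Of the 1531 probes, 1269 were also called in the same direction at both higher concentrations and 159 were called at low alone. The 4 low arrays lay above all 8 controls in 1385 probes (25.3%) and below all 8 in 1382 (25.2%). An unadjusted p of 0.05 or less was reached by 3798 probes (69.3%), and 2845 (51.9%) had a fold change above 0. Counted once per named gene, 340 of 2581 genes (13.2%) rose and 334 (12.9%) fell, with a median log2 fold change of 0.10 over all of them at low, 0.54 at mid and 0.62 at high. At an unadjusted p under 0.05 (limma), 936 of the 2581 rose and 810 fell. These are the shares against which the gene lists below are read.

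**Figure D1:**
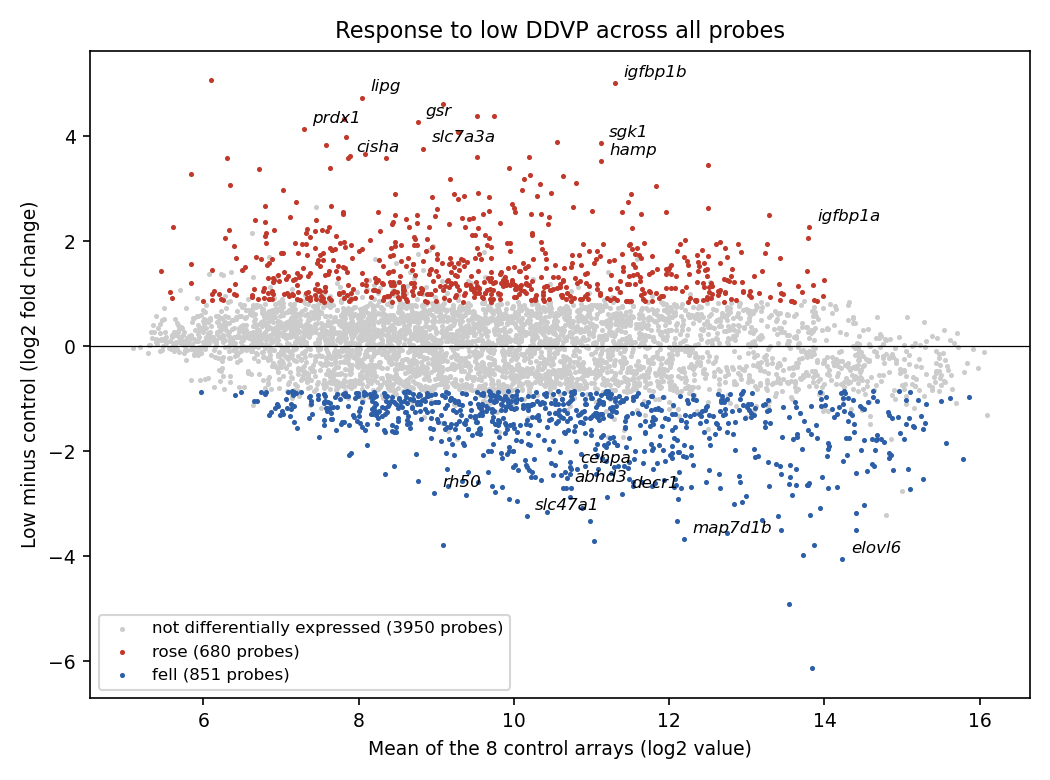
Log2 fold change at low DDVP (vertical axis) against the mean log2 value of the 8 control arrays (horizontal axis) for the 5481 probes. Red points are the 680 probes that rose, blue points the 851 that fell and grey points those not called. igfbp1b stands at the top among named genes and elovl6 at the bottom.

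The gene with the largest rise was igfbp1b, an IGF binding protein that the liver secretes when growth is held back. Its log2 value was 16.57, 16.35, 16.47 and 15.90 on the 4 low arrays, against 10.72 to 12.02 (median 11.36) on the 8 controls. Every low array was above the highest control. The change was 32.5-fold (log2 fold change 5.02 ± 0.21 SE, adjusted p = 7.1e-13). The second copy of the gene in zebrafish, igfbp1a, read 16.07, 16.20, 15.93 and 16.10 at low against 13.31 to 14.28 (median 13.75) in the controls, a rise of 4.83-fold (2.27 ± 0.17 SE, adjusted p = 1.1e-09). All 3 of its probes rose, by log2 2.27 to 3.45. The copies are related in sequence, and how far each probe also reads the other copy was not tested.

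Both binding proteins were higher at low than at the concentrations above it. For igfbp1b the mean log2 value fell from 16.32 at low to 14.57 at mid and 14.43 at high, so that low exceeded mid by 1.75 (adjusted p = 9.8e-07) and high by 1.90 (adjusted p = 1.2e-07). No array of mid or high reached the lowest of the low arrays. On its brightest probe igfbp1a, at a mean of 14.37 at mid and 14.43 at high, was not differentially expressed at either of them and stood 1.70 (adjusted p = 1.4e-07) and 1.64 (adjusted p = 6e-08) below its level at low. Its other probes were called up at both, by 0.97 and 2.02 at mid and 1.03 and 1.98 at high, and on these too low was higher. By the paper, offscale readings of the DDVP slides were replaced by those of a scan at lower power. Whether the bright values of igfbp1b and igfbp1a cross that step was not tested.

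Genes of hormone and growth signalling, the list to which these belong, had a median of 1.57 at low, 0.84 at mid and 1.17 at high. Of its 15 genes 7 rose, 4 fell and 4 were not called, beside 13.2% up and 12.9% down of all named genes. sgk1, a kinase induced by serum and glucocorticoids, read 15.11, 15.28, 14.93 and 14.65 at low and 10.36 to 11.87 (median 11.13) in the controls, without overlap (3.87 ± 0.23 SE, adjusted p = 3.5e-11). All 3 sgk1 probes rose, by 3.87 to 4.62, while low did not differ by the test from mid (0.75, adjusted p = 0.0072) or high (0.47, adjusted p = 0.067). cisha, an inhibitor of cytokine and growth hormone signalling, read 12.08, 11.66, 10.76 and 11.29 at low and 7.10 to 9.27 (median 7.53) in the controls (3.59 ± 0.41 SE, adjusted p = 5.1e-07). The insulin receptor substrates irs2a and irs2b rose as well, by 1.57 and 1.61 on the brighter of their probes. Those that fell were the growth hormone receptor ghra (-1.36), the growth factor igf2a (-1.11), the binding protein igfbp2a (-1.02) and tsc22d3 (-1.07), a leucine zipper protein that glucocorticoids induce in mammals. igf1 itself gave 0.33 at low (adjusted p = 0.35) and changed by -1.93 at mid and -2.12 at high. The members named after cisha were chosen after their values were seen. By the test 7 of the 15 were higher at low than at high, where 18.3% of all named genes were. With the wider error described next 4 were, where 322 of the 2581 named genes were. The count takes in any gene lower at high, also one whose change was not largest at low.

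**Figure D2:**
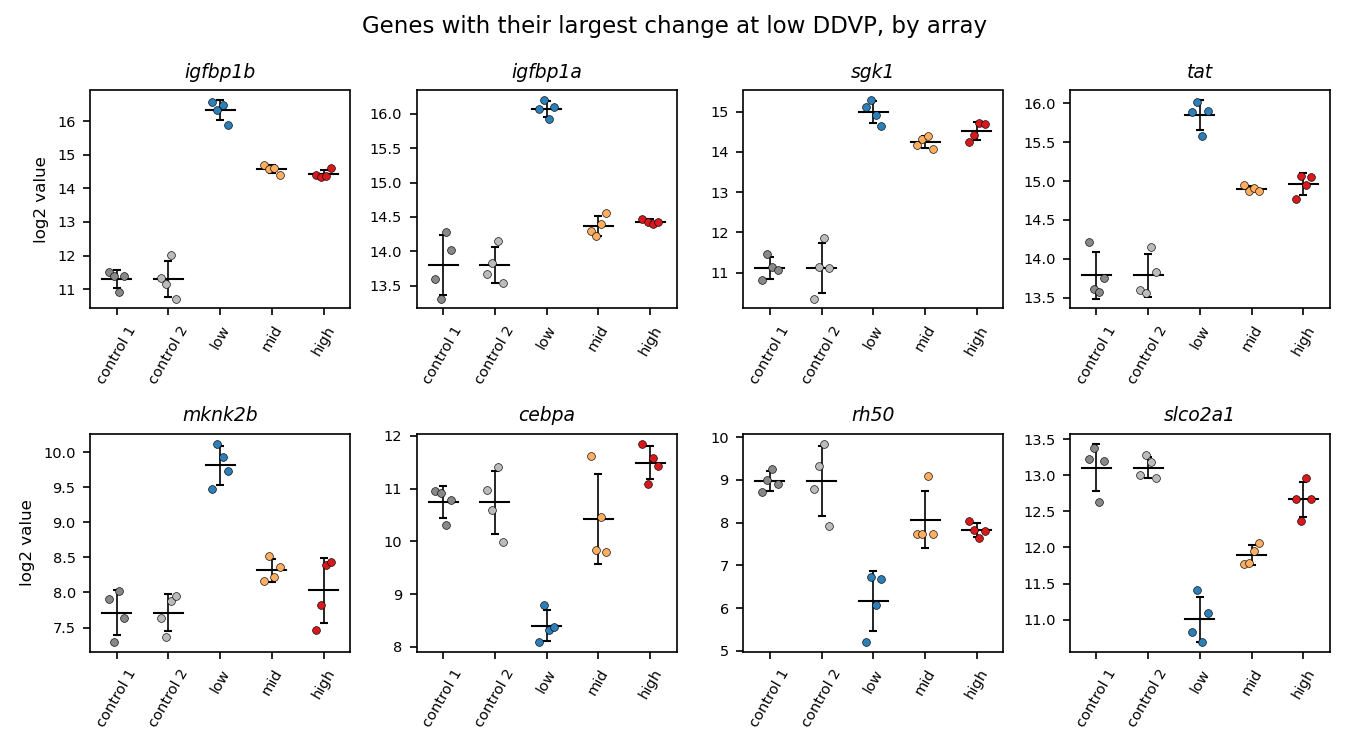
Log2 values (vertical axes, scaled per gene) of 8 genes on the 4 arrays of each DDVP group. Each point is an array, the horizontal line is the group mean and the bar is ± 1 SD. igfbp1b, igfbp1a, tat and mknk2b are highest at low, and cebpa, rh50 and slco2a1 are lowest there, while for sgk1 low did not pass the test against mid or high.

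What was particular to the mildest exposure was asked directly, by contrasts of low with mid and with high, in which the difference takes no control value while the error is pooled over the arrays of all groups, controls included. Low differed from mid in 1375 probes (25.1%; 699 higher, 676 lower) and from high in 2331 (42.5%; 1122 higher, 1209 lower). The deposited values had been set so that both control sets share a mean in every probe, and which set was run beside which concentration is not given in the sources used here. If low had a control set of its own, the error of both sets would enter these contrasts. Computed that way, the differences keep their size and 528 probes (9.63%) differed between low and mid, and 1654 (30.2%) between low and high, with 783 higher at low (14.3%) and 871 lower (15.9%). This wider error was added after the data were seen. Among the 2581 named genes 473 (18.3%) were higher at low than at high and 632 (24.5%) lower, or 322 and 464 with the wider error.

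Among the 680 probes that rose at low, 174 (25.6%) were higher still at high and 67 (9.85%) were lower at high, with 439 not past the test. Of the 851 that fell, 331 (38.9%) were lower still at high and 20 (2.35%) were higher at high than at low. Some of these 20 had passed the controls at high, cebpa among them (0.74 above). In 44 probes called at low (0.803% of the table), the level at low lay beyond that at both mid and high, on the side of the change. Of these, 27 rose and 17 fell at low. The rule compares levels and not distances from the controls. It thus takes in a probe of sgk2b described below, at -1.45 at low and 1.95 at high. The 44 included 25 probes of 22 named genes, and in 41 of them the low arrays lay outside the range of the controls. With the wider error 13 of the 44 remained (0.237%), 9 up and 4 down. Among them were the igfbp1b probe, all 3 igfbp1a probes and the sgk2b probe.

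**Figure D3:**
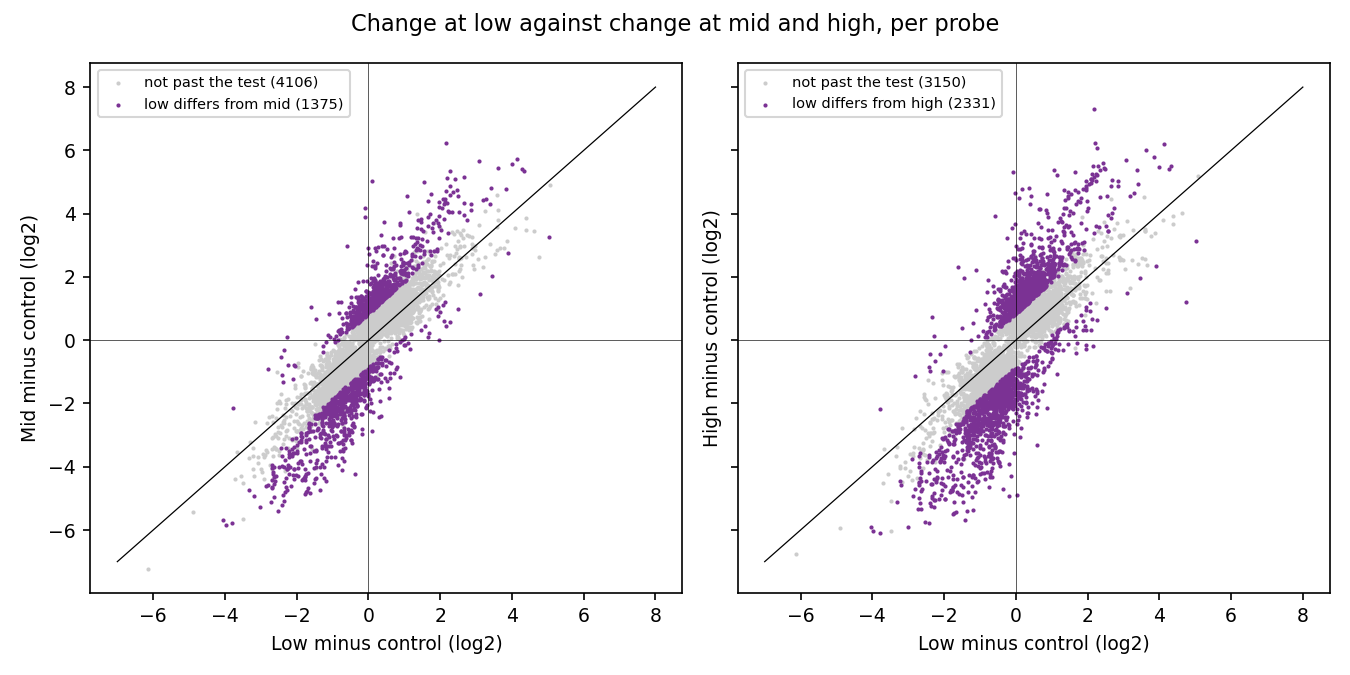
Log2 fold change at mid (left) and at high (right) on the vertical axes against the log2 fold change at low on the horizontal axis, per probe, with the diagonal marking equal change. Purple points are the 1375 and 2331 probes in which low differed from mid and from high, and the controls are shared by both axes.

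Beside the IGF binding proteins, tat, mknk2b and myo3a rose further at low on their brightest probe. tat, the enzyme that starts tyrosine breakdown and a textbook glucocorticoid target in mammals, read 15.89, 16.02, 15.58 and 15.91 at low against 13.55 to 14.22 (median 13.68) in the controls. It rose by 2.06 at low, 1.11 at mid and 1.17 at high, and low exceeded both (adjusted p = 3.7e-05 and 3.5e-05). mknk2b, a kinase that phosphorylates the cap-binding factor of translation, read 9.47, 10.12, 9.93 and 9.74 at low and 7.29 to 8.01 (median 7.76) in the controls. Its rise of 4.30-fold (adjusted p = 8.2e-08) stood beside log2 changes of 0.60 at mid and 0.32 at high, neither of them called. myo3a, a class of myosin known from sensory cells, rose by 1.97 at low (adjusted p = 2.1e-06), with 0.02 at mid and -0.16 at high. With the wider error tat lost its calls against mid (adjusted p = 0.0023) and high (0.0018), and those against mid held for mknk2b (0.00069) and myo3a (0.00039). A dimmer probe of klf15, a Krüppel-like factor that glucocorticoids induce in mammals, rose by 2.13 at low. This probe, named after its value was seen, was also called as rising at mid and gave 0.67 at high, where it was not called. With the wider error its call of low against mid was lost, while that against high held. The brighter klf15 probe was not among those that at low lay beyond both mid and high.

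Among named genes, falls that were deepest at low were led by rh50, an ammonium transporter of the Rh family. Its log2 value was 5.21, 6.72, 6.08 and 6.68 at low against 7.92 to 9.84 (median 8.96) in the controls, a fall of 6.97-fold (-2.80 ± 0.36 SE, adjusted p = 2.1e-06). At mid (-0.90) and high (-1.14) it was not called. cebpa, a transcription factor of the differentiated hepatocyte, read 8.09, 8.80, 8.32 and 8.38 at low, all below the lowest control, and up to 11.41 (median 10.85) in the controls (-2.34 ± 0.33 SE, adjusted p = 5e-06). Low lay 2.03 below mid (adjusted p = 3e-05) and 3.09 below high (adjusted p = 7.3e-08), where the cebpa mean was 0.74 above the controls without being called. slco2a1, a prostaglandin transporter, read 10.83, 11.40, 10.69 and 11.09 at low against 12.63 to 13.38 (median 13.19), and its fall shrank from -2.10 at low to -1.21 at mid and -0.44 at high. Smaller falls at low alone were those of ctnnbip1, an inhibitor of beta-catenin (-1.26), ppp1r13l, an inhibitor of p53 (-1.18), and ntpcr, a nucleotide hydrolase (-1.06). Against mid with the wider error, rh50 (adjusted p = 0.0063), cebpa (0.002), slco2a1 (0.0074) and ppp1r13l (0.0017) lost the call, rh50 also against high (0.0086), and ctnnbip1 (0.00032) and ntpcr (0.00017) kept it.

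By the rule 3 probes (0.0547%) were differentially expressed in opposite directions at low and at high, and they are named after their values were seen. The count was 1 to 5 with 1 array left out, 1 without variance moderation and 14 without a fold filter. The clearest was a probe of sgk2b, a kinase related to sgk1, which read 8.90, 9.59, 9.77 and 9.35 at low, 10.23 to 11.38 (median 10.85) in the controls and 12.80, 12.49, 13.01 and 12.91 at high. The control range separates the low arrays from the high ones without overlap. The change was -1.45 ± 0.22 SE at low (adjusted p = 1.7e-05), 0.66 at mid and 1.95 at high. On the brighter probe of sgk2b the changes were -1.10, 0.84 and 2.21, with the fall at low not called. ndel1a, a partner of the dynein motor, fell by 1.12 at low and rose by 0.95 at high, and its low arrays (7.89, 8.14, 8.15 and 8.69) overlapped the lowest control (8.62). This is the dimmer of its probes, and the brighter gave -0.72 at low (adjusted p = 0.0014, not called) and 0.88 at high. An unnamed probe, A_15_P118781, rose by 1.16 at low and changed by -1.05 at high, with 1 low array (10.02) below the highest control (10.07). The difference between low and high was -3.40 for sgk2b, -2.07 for ndel1a and 2.21 for the unnamed probe, and held with the wider error (adjusted p = 1.1e-07, 3.1e-05 and 3.6e-05).

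Genes of oxidant defence and NADPH supply held 4 of the 12 largest rises without overlap. gsr, which reduces oxidised glutathione, read 13.31, 13.09, 12.66 and 13.08 at low against 8.40 to 9.38 (median 8.67), a rise of 19.4-fold (4.28 ± 0.20 SE, adjusted p = 9.7e-13). All 4 gsr probes rose, by 2.67 to 4.33. prdx1, a peroxide-reducing peroxiredoxin, read 12.07, 11.06, 11.33 and 11.30 at low and 6.59 to 8.16 (median 7.28) in the controls (4.14 ± 0.31 SE, adjusted p = 1e-09). The low arrays of both genes lay far above every control. pir, an iron-containing nuclear protein, rose by 3.84 ± 0.18 SE (adjusted p = 1.4e-12), and pgd, which makes NADPH in the pentose phosphate pathway, by 3.41 ± 0.24 SE (adjusted p = 3.9e-10). The rate-limiting pair for glutathione synthesis also rose, gclc by 2.85 on its brighter probe and 1.44 on the other, and gclm by 2.85. The small Maf protein maff, a partner of NRF2 on DNA, rose by 2.81. In the 6 genes of glutathione synthesis and reduction 4 rose and 1 fell, chac2 (-2.18), which degrades glutathione, with a list median of 1.92 (chac2 is named after its value was seen). Unlike the IGF binding proteins, 4 of the 6 were lower at low than at high, where 24.5% of all named genes were. With the wider error 3 were, where 464 of the 2581 named genes were. The differences from high were -1.13 for gsr (adjusted p = 3.3e-05, or 0.0017 and no longer called with the wider error) and -2.05 for prdx1 (5.9e-06, or 0.00049). Thioredoxin, peroxiredoxin and other NRF2 targets were split, 5 of 17 up and 3 down with a median of 0.06. Those that fell were prdx4 (-1.45), prdx5 (-1.29) and the large Maf factor mafba (-1.66), all named after their values were seen. Of 11 glutathione transferases and peroxidases 3 rose and 2 fell (median -0.05 at low and -1.67 at high), and of 9 genes of the pentose phosphate pathway 2 rose and 1 fell (median 0.55). The shares over all named genes were 13.2% up and 12.9% down.

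**Figure D4:**
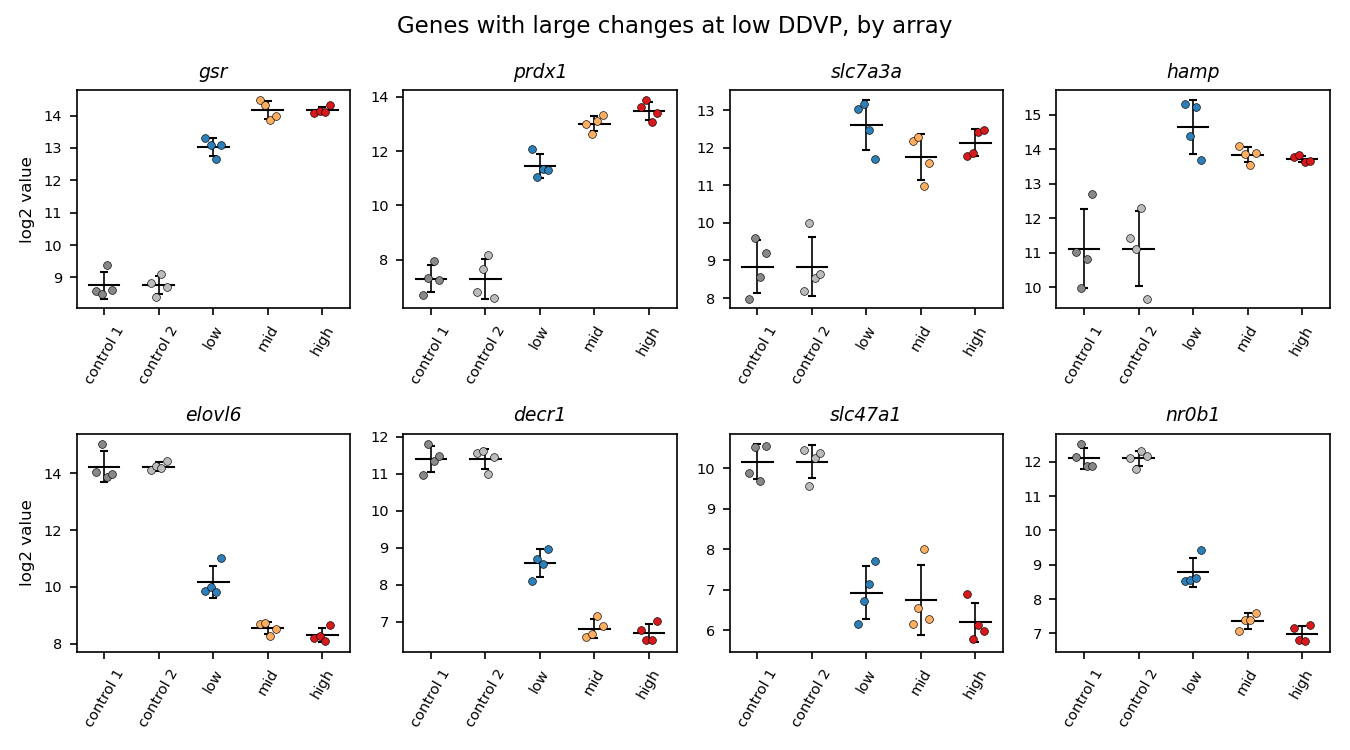
Log2 values (vertical axes, scaled per gene) of 8 genes with large changes at low on the 4 arrays of each DDVP group. Points are arrays, lines are means and bars are ± 1 SD. In all 8 genes the low arrays lie outside the range of the 8 controls, and gsr, prdx1, elovl6, decr1 and nr0b1 move further at mid and high.

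On the lists for amino acid metabolism and the ATF4 pathway the largest rise was that of slc7a3a, a carrier of cationic amino acids. It read 13.03, 13.18, 12.49 and 11.71 at low against 7.99 to 9.99 (median 8.61), a rise of 13.6-fold (3.77 ± 0.40 SE, adjusted p = 1.7e-07), and low passed the test against neither mid (adjusted p = 0.072) nor high (adjusted p = 0.29). In the ATF4 pathway 10 of 15 genes rose and 1 fell, creb3l3a (-2.27, named after its value was seen), a liver factor of the CREB3 family, with a median of 1.36. The shares over all named genes were 13.2% up and 12.9% down. trib3, a pseudokinase that feeds back on ATF4, rose by 2.47 ± 0.35 SE (adjusted p = 5.7e-06), and its low arrays were spread from 11.55 to 14.16. atf3 rose by 2.42 ± 0.53 SE (adjusted p = 0.00055), but the call was lost without low replicate 1, 2 or 4, without control set 1 replicate 1, 2 or 4 or without control set 2 replicate 1 or 2, where the change was 1.84 to 2.50 and the adjusted p 0.0011 to 0.0032. Its controls alone ranged from 7.69 to 11.16.

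Enzymes that move nitrogen and sulfur between amino acids rose beside them. got1, the cytosolic aspartate aminotransferase, rose by 2.87, gls2b, a glutaminase of liver, by 2.61, and cth, which makes cysteine from cystathionine, by 2.03. In that list 5 of 13 rose and 1 fell, the methionine synthase mtr (-1.40, named after its value was seen), with a median of 0.78. Among genes of aromatic and branched-chain amino acid breakdown 7 of 17 rose and 2 fell, beside 13.2% up and 12.9% down of all named genes. bcat1, which deaminates branched-chain amino acids, read 12.43, 12.31, 12.07 and 12.13 at low and 8.80 to 9.67 (median 9.50) in the controls (2.87 ± 0.19 SE), and qdpra, which recycles the cofactor of phenylalanine hydroxylase, rose by 2.11. Low minus mid was -0.03 for bcat1 (adjusted p = 0.91) and 0.21 for qdpra (adjusted p = 0.42). Of 8 genes of serine, glycine and one-carbon metabolism, tdh, a threonine dehydrogenase (2.64), and gldc of the glycine cleavage system (1.51) rose and 3 fell. gatm, which starts creatine synthesis, was the deepest of these at -3.49 ± 0.63 SE (adjusted p = 8.8e-05), though its low arrays (9.44, 10.18, 10.95 and 13.10) reached into the control range of 12.75 to 15.52.

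Iron genes formed the list with the highest median at low, 2.17 over 9 genes, of which 5 rose and none fell by limma, where 7 rose and 2 fell at an unadjusted p under 0.05. For comparison, 13.2% of all named genes rose and 12.9% fell, and 936 and 810 of 2581 did at that unadjusted p. hamp encodes hepcidin, the hormone with which the liver lowers iron release into blood. It read 15.32, 14.38, 15.23 and 13.68 at low and 9.67 to 12.71 (median 11.06) in the controls, an 11.5-fold rise (3.53 ± 0.49 SE, adjusted p = 4.7e-06) that did not differ by the test from mid (0.80, adjusted p = 0.16) or high (0.92, adjusted p = 0.092). The ferritin-like genes fthl27 and fthl31, from a family of near copies whose probes may share signal, rose by 2.89 and 2.53. Only the latter was lower at low than at high, by 2.02 (adjusted p = 6.6e-06).

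Several other large rises stood apart from these lists. lipg, the endothelial lipase that acts on lipoprotein phospholipids, read 12.16, 14.43, 13.47 and 11.07 at low and 6.88 to 9.23 (median 8.18) in the controls, a 26.7-fold rise (4.74 ± 0.54 SE, adjusted p = 4.1e-07). It was 3.55 higher at low than at high (adjusted p = 6.7e-06) and 2.11 higher than at mid, where the test was missed (adjusted p = 0.0021). cyp24a1, the hydroxylase that inactivates vitamin D, rose by 3.61 ± 0.28 SE, beside 3.81 at mid and 3.50 at high. myca, a Myc transcription factor, rose by 3.40 ± 0.32 SE and slc2a12, a glucose carrier, by 3.26 ± 0.28 SE. The largest rise of any probe, 5.07, was on an unnamed one, A_15_P411795, singled out after its value was seen.

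Genes of autophagy and of cell death rose in part. For comparison, 13.2% of all named genes rose and 12.9% fell by limma, and 936 and 810 of 2581 did at an unadjusted p under 0.05. Of 15 autophagy and lysosome genes 8 rose and none fell by limma (14 and 1 at an unadjusted p under 0.05; median 0.88), among them atg14 (1.88), which starts the autophagosome, and the lysosomal protease ctsla (1.87). map1lc3a, which coats autophagosomes, read 14.20, 14.28, 13.96 and 14.15 at low and 12.43 to 13.02 (median 12.78) in the controls. Its rise of 1.34 at low compared with 0.54 at mid and 0.37 at high, and low exceeded high by 0.97 (adjusted p = 4.6e-05), a call lost with the wider error (0.0021). In the p53 and apoptosis list 5 of 12 rose and none fell by limma (10 and 1 at an unadjusted p under 0.05; median 0.95). mcl1a, which blocks apoptosis, rose by 1.95 ± 0.19 SE and was 0.89 higher at low than at high (adjusted p = 0.00026, or 0.0069 and not called with the wider error). casp9, which starts it, rose by 2.28 ± 0.45 SE (adjusted p = 0.00023), with 11.78 on low replicate 2 and 8.91 to 9.93 on the other low arrays. The casp9 call was lost without control set 2 replicate 1 (2.11, adjusted p = 0.0013).

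The largest named fall was that of elovl6, which lengthens saturated fatty acids. It read 9.87, 10.01, 9.83 and 11.02 at low against 13.87 to 15.03 (median 14.13) in the controls, a fall of 16.6-fold (-4.05 ± 0.25 SE, adjusted p = 5.9e-11), and low replicate 4 was the mildest. It fell further at the higher concentrations, with -5.68 at mid and -5.92 at high. In fatty acid synthesis, elongation and storage 8 of 19 genes fell and 3 rose, with a median of -0.82 at low, -0.78 at mid and -0.68 at high. Among all named genes 12.9% fell and 13.2% rose. elovl8b fell by 2.29, while lpin1a, a phosphatidate phosphatase that also acts in the nucleus, rose by 2.92 (13.33, 13.30, 13.57 and 13.38 at low against 10.04 to 11.30, median 10.36).

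Genes of fatty acid oxidation fell in both organelles that carry it out, and none was called as rising by limma (1 mitochondrial and 0 peroxisomal genes rose at an unadjusted p under 0.05). In mitochondria 13 of 20 genes fell, and 19 of the 20 fold changes were below 0, with a median of -1.08 at low, -2.25 at mid and -2.58 at high. Of all 2581 named genes 12.9% fell, and 1164 had fold changes below 0 at low. decr1, needed for unsaturated fatty acids, read 8.10, 8.71, 8.57 and 8.98 at low against 10.96 to 11.80 (median 11.47), a fall of 7.01-fold (-2.81 ± 0.20 SE, adjusted p = 7.4e-10). cpt2, which loads fatty acids inside the mitochondrion, fell by 2.00 and the dehydrogenase hadh by 1.97. In peroxisomes 6 of 14 genes fell and all 14 fold changes were below 0 (median -0.75). crot, which exports chain-shortened fatty acids, fell by 2.15, ech1 by 1.33 and the thiolase acaa1 by 1.27. By the direct contrast with high, 16 of the 20 mitochondrial and 12 of the 14 peroxisomal genes were higher at low (14 and 11 with the wider error). Over all named genes 18.3% were higher at low (322 of 2581 with the wider error).

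Of the 12 genes with the largest falls and no overlap with the controls, map7d1b, a protein of the microtubule-binding MAP7 family, read 8.31, 8.54, 8.53 and 8.69 at low and 11.81 to 12.70 (median 12.04) in the controls (-3.67 ± 0.18 SE, adjusted p = 3.5e-12). Its level at mid and high was within 0.22 of that at low. nr0b1, an orphan nuclear receptor that represses transcription, read 8.54, 8.55, 8.61 and 9.42 against 11.80 to 12.53 (median 12.12) and fell without overlap (-3.32 ± 0.20 SE), with deeper falls of -4.74 at mid and -5.12 at high. ndrg2 (-2.70), abhd3, a phospholipase (-2.70), klf11b, a Krüppel-like factor (-2.70), and guca1g, an activator of guanylate cyclase (-2.94), were the others not described elsewhere. The largest fall of any probe, -6.14, was on an unnamed one, A_15_P402330, singled out after its value was seen.

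Transport and detoxification genes went both ways at low. Over all named genes 13.2% rose and 12.9% fell. Of 67 solute carriers 14 rose and 11 fell. slc47a1, which exports drugs and organic cations, read 6.16, 6.72, 7.15 and 7.71 at low and 9.58 to 10.56 (median 10.32) in the controls (-3.23 ± 0.37 SE, adjusted p = 4.6e-07). slc25a39, which brings glutathione into mitochondria in mammals, fell by 3.31 ± 0.25 SE and was level across the concentrations, with -3.21 at mid and -3.37 at high. slc25a36a, a mitochondrial nucleotide carrier, fell by 3.22 ± 0.21 SE. Of 17 cytochrome P450 genes 3 rose and 2 fell (median -0.28 at low, -1.08 at mid and -1.76 at high), where cyp2v1 rose by 1.46 and cyp4v2a fell by 1.73. The remaining xenobiotic enzymes counted 3 up and 8 down of 25. The paraoxonase family was divided, with pon1 up by 2.07 ± 0.29 SE (adjusted p = 4.6e-06) and pon2 changed by -2.12 ± 0.22 SE (adjusted p = 1e-07). pon1 read 11.83, 12.06, 11.26 and 11.86 at low against 8.50 to 10.43, and pon2 read 9.65, 10.09, 10.23 and 10.46 against 11.79 to 12.46. ugt5b6, a glucuronosyltransferase, fell by 2.66.

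In carbohydrate metabolism 5 of 19 genes of glycolysis and gluconeogenesis rose and 4 fell. fbp1a, a fructose bisphosphatase of glucose production, read 13.67, 13.56, 13.51 and 13.58 at low and 10.58 to 11.19 (median 11.14) in the controls (2.57 ± 0.14 SE, adjusted p = 2e-11). pdk2a, a kinase that holds back pyruvate oxidation, fell by 2.31 ± 0.23 SE. Of the plasma proteins of coagulation, complement and the acute phase, 1 of 18 rose, hamp, which is also on the iron list, and 3 fell. Among all named genes 13.2% rose and 12.9% fell. On the list of plasma proteins f7i fell by 1.36 ± 0.20 SE. By contrast with high, 14 of the 18 were higher at low (12 with the wider error), where 18.3% of all named genes were (322 of 2581 with the wider error).

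**Figure D5:**
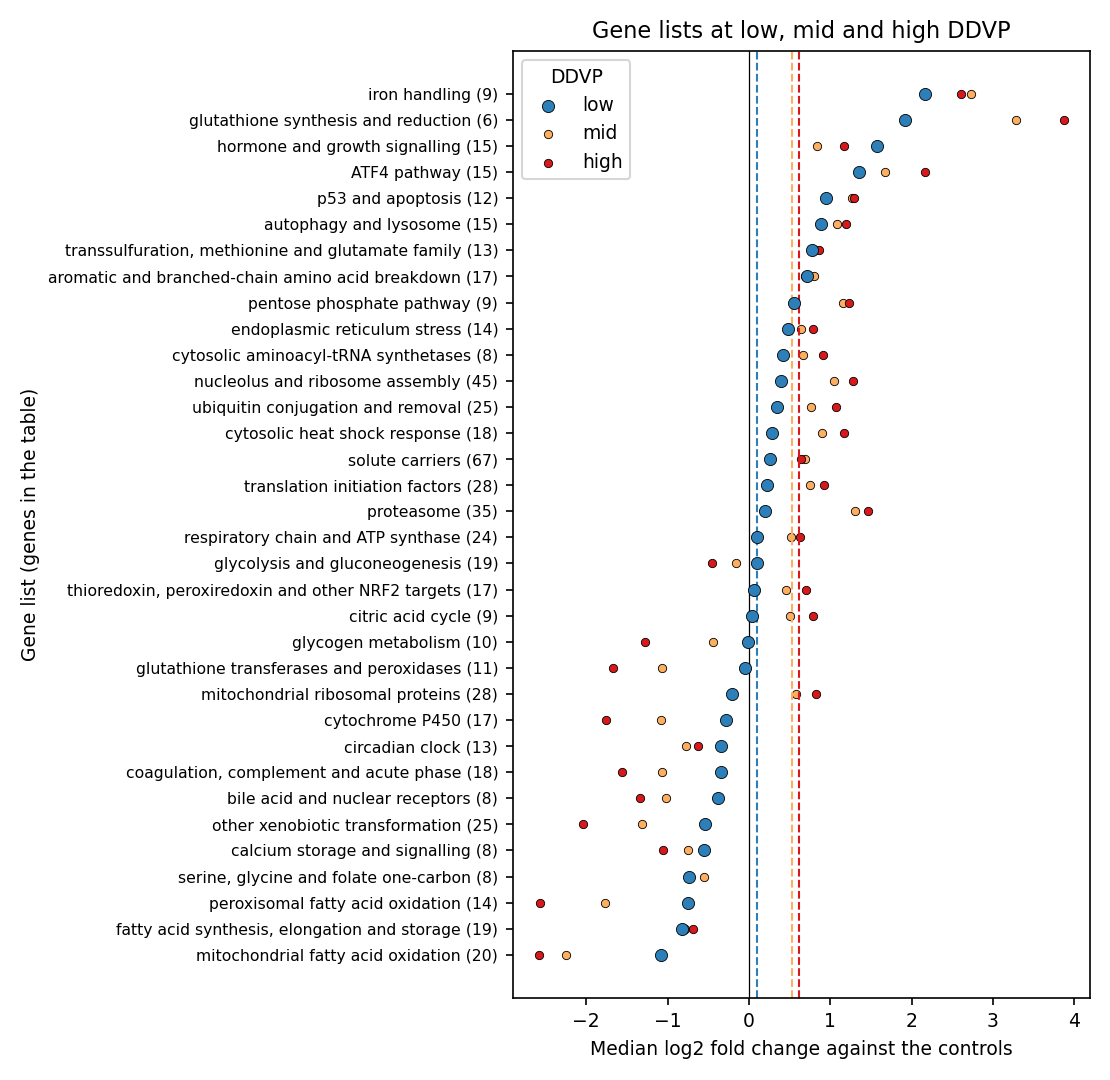
Median log2 fold change against the controls (horizontal axis) of each gene list with at least 6 genes in the table, at low, mid and high DDVP, with the number of genes in brackets. Dashed lines mark the median over all 2581 named genes at each concentration. The hormone list is higher at low than at mid or high, and the proteasome list is at 0.20 at low and 1.46 at high.

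Some groups that were high at the upper concentrations were closer to the controls at low. Of 35 proteasome genes 1 rose at low, psmd11b (0.96 ± 0.19 SE, adjusted p = 0.00021), and the call was lost without control set 1 replicate 3 (0.85, adjusted p = 0.0011) or control set 2 replicate 1 (0.80, adjusted p = 0.0013). The list median was 0.20 at low, 1.31 at mid and 1.46 at high, and 28 of the 35 were lower at low than at high (24 with the wider error). Over all named genes 24.5% were lower at low than at high (464 of 2581 with the wider error). Of 28 mitochondrial ribosomal proteins 21 had fold changes below 0 at low, with a median of -0.20 that became 0.58 at mid and 0.82 at high. Of all 2581 named genes 1164 had fold changes below 0 at low. Only mrpl20 rose (1.96) and only mrpl51 fell (-2.24), and 18 of the 28 were lower at low than at high (15 with the wider error). For the nucleolus and ribosome assembly 6 of 45 rose, myca among them, and 2 fell (27 and 3 at an unadjusted p under 0.05). Over all named genes 13.2% rose and 12.9% fell, and 936 and 810 of 2581 did at that unadjusted p. The list median was 0.39 at low, 1.04 at mid and 1.28 at high. At low 38 of the 45 fold changes were above 0, as were 1417 of the 2581 over all named genes. Per array the list median was 0.38 to 0.48 above the control mean at low and -0.13 to 0.15 from it in the controls, without overlap. By the direct contrast 25 of the 45 were lower at low than at high (22 with the wider error). None of the 24 genes of the respiratory chain or of the 9 genes of the citric acid cycle was called at low by limma, and 9 and 4 of them passed an unadjusted p under 0.05. Over all named genes 1746 of 2581 passed it.

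Heat shock genes behaved in both ways. The chaperone gene hsp70l read 9.82, 9.20, 9.16 and 8.91 at low and 6.90 to 7.73 (median 7.26) in the controls, a rise of 1.95 that grew to 3.72 at mid and 4.81 at high. zfand2a, which brings misfolded proteins to the proteasome, rose by 2.27, 5.36 and 6.07 in the same order. hsf2, a heat shock transcription factor, went the other way, with a 2.64-fold rise at low (adjusted p = 1.1e-05) and log2 changes of 0.64 at mid and 0.49 at high, and low exceeded high by 0.91 (adjusted p = 0.00057, or 0.011 and not called with the wider error). In the list 5 of 18 rose and 1 fell, beside 13.2% up and 12.9% down of all named genes.

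The 10 genes that missed an unadjusted p of 0.05 at low and had the largest changes at mid are given next, chosen on those values. ptgr1.1, a prostaglandin reductase, read 7.92, 8.11, 8.57 and 8.59 at low, inside the control range of 7.76 to 9.20 (median 8.21), and stood 4.17 above the controls at mid and 5.33 at high. scd, the desaturase of saturated fatty acids, gave -0.11 ± 0.57 SE at low and 3.90 at mid, on controls that ranged from 5.70 to 9.77. slc16a9a, pla2g3 and cldnb, a carrier of monocarboxylates, a phospholipase and a claudin of tight junctions, gave 0.87, 0.42 and 0.28 at low and 3.65, 2.98 and 2.94 at mid. In the other direction timp2a, an inhibitor of metalloproteinases, read 14.46, 14.16, 14.43 and 14.94 at low against 14.37 to 15.14 and fell by 2.81 at mid. crabp1a, cacnb2a, ano10b and prpsap1 gave -0.80, -0.45, -0.51 and -0.47 at low and -3.49, -3.26, -2.86 and -2.83 at mid. In ano10b and prpsap1 all 4 low arrays lay below the 8 controls although the test was missed (adjusted p = 0.15 for both). A second probe of cacnb2a was called at low, at -2.38.

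The same table holds arrays of unexposed fish fed normally or left without food for 24 h or 50 h by the labels, 4 of each, which give a scale for the IGF binding proteins. The paper describes the shorter fast as lasting some hours more than the 24 h of the labels. For igfbp1b the log2 value was 8.19 to 10.59 in fed fish, 10.91 to 11.49 after 24 h and 10.70 to 11.62 after 50 h without food. The lowest low DDVP array, 15.90, was above all 12 of these. igfbp1a read 11.94 to 13.72, 13.49 to 14.13 and 12.44 to 13.60 in the same groups, against at least 15.93 at low DDVP. The authors' processing gives the 24 h group the same mean as the DDVP controls in each probe, so these levels are set by that step and were not tested. By the paper, the slides of the feeding experiment were also read on a different scanner from the DDVP slides. What part this had in the levels above was not tested.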

How the data were processed

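Liver RNA pools were hybridised to single-colour Agilent zebrafish arrays. By the paper, the DDVP slides were scanned at a lower and a higher power, and readings offscale at the higher were replaced by those at the lower. Which values came from which scan was not examined. Its part in contrasts of bright probes, such as those of igfbp1b, igfbp1a and tat, was not tested. The authors quantile normalised the probe signals, removed a batch effect in Partek and deposited log2 values of 5481 probes that passed a joint test across groups, so a selected table was analysed. The deposited scanner intensity files of the other arrays served only to name probes and to check the table (correlation of within-probe deviations 0.916). No scanner data for DDVP arrays entered the analysis. Groups followed the labels, and 0 columns were left out.

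limma 3.58.1 in R 4.3.3 fitted the 20 DDVP arrays as 5 groups, with low against the controls and low against mid and high as contrasts, Benjamini-Hochberg adjustment over all probes, and calls where the adjusted p was 0.001 or lower and the change 1.8-fold or more. Values in the text are log2 changes against the controls unless stated. On simulated data 61 of 100 probes changed by log2 1, 95 of 100 changed by log2 2 and 0 unchanged probes were called at low. The simulated noise was normal and independent between probes, without the selection of probes or the equal control means of the table. It therefore does not give the rate of false calls in the selected table, which was not tested. The number of arrays limits the precision, and p-values measure the spread between pools.

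Symbols came from RefSeq accessions (3295 of 3714 matched), with the brightest probe standing for a gene. Named genes were the 12 largest rises and falls whose low arrays did not overlap the controls, the 6 each way that went furthest beyond mid and high, the 5 each way that missed an unadjusted p of 0.05 at low with the largest changes at mid among those called at mid and high, and genes among the 3 largest changes of each list. Others are marked as named after their values were seen. Not every gene under the rule is reported here. The genes, lists and rules were chosen with earlier results of these data known. Kinases of the ribosomal S6 family were left out of the ribosomal protein list. Other control references, variance models, scaling, thresholds, a filter on dim probes, a replicate block and leaving out each array were tried.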

Additional observations from a re-analysis of the deposited data

Results flagged for a closer look

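In 12 of the 255 groups of 4 arrays examined (4.71%) 1 array stood apart from the other 3 by Dixon's test, which chance does in about 1 in 20 groups. At low DDVP both cases were replicate 4, with a log2 value of 11.02 for elovl6 (9.83 to 10.01 on the others) and 9.42 for nr0b1 (8.54 to 8.61). In control set 1, replicate 3 was high for gsr (9.38 against 8.47 to 8.62), myca (8.59 against 7.25 to 7.43) and mrpl20 (10.22 against 9.80 to 9.82). Replicate 2 of that set was high for elovl6 (15.03 against 13.87 to 14.05) and low for fbp1a (10.58 against 11.13 to 11.17), and replicate 4 was high for map1lc3a (13.02 against 12.72 to 12.74). In control set 2, replicate 1 was high for map7d1b (12.70 against 11.96 to 12.05) and cyp4v2a (13.99 against 13.49 to 13.57), replicate 3 was high for gclm (9.20 against 8.83 to 8.89) and replicate 4 was low for pon1 (9.32 against 9.75 to 9.83).

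By the calls against the controls, a probe of sgk2b, a probe of ndel1a and the unnamed probe A_15_P118781 changed in opposite directions at low and at high. The contrast of low with high gave -3.40, -2.07 and 2.21 for them. It tests a difference in level and not in direction.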

How the results depend on the processing

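The count of probes differentially expressed at low, 1531, was 1242 to 1927 under the alternatives (1546 with the replicate block) and 1309 to 1536 with 1 array left out, with 576 to 668 rising and 720 to 921 falling. Low against mid gave 1114 to 1369 probes and low against high 2165 to 2380 with 1 array left out, and low against mid gave 528 with a control set for each concentration. The 44 probes that at low lay beyond mid and high became 79 without a fold filter and 13 with a control set for each concentration. With 1 array left out they were 34 to 46. The 3 opposite probes became 1 without variance moderation, 14 without a fold filter and 7 at an adjusted p of 0.05. They became 1 without control set 1 replicate 1 or 4, control set 2 replicate 1 or 3 or high replicate 2 or 3, and 5 without low replicate 3. The last 2 counts could not be fitted on the low and control arrays alone.

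Of 2034 values of 85 named genes under alternatives 16 lost the call, in atf3, casp9, hsp70l and psmd11b. Changes of direction were counted only for the 75 of these genes called at low, where there were 0. Beside the arrays given above, atf3 lost it on the 12 low and control arrays alone (adjusted p = 0.0034) and without moderation (0.0032), casp9 (0.0016) and hsp70l (0.0011) without moderation, and psmd11b at a fold filter of 2. Of 39 list medians 1 changed sign, glycogen metabolism, from -0.01 to 0.03 with arrays centred. Equal replicate numbers were not taken to pair the arrays, as 11 of 40 same-numbered pairs, and not all, correlated above 0.1 (range -0.284 to 0.328), while 8 of 20 arrays correlated best with an array of their own number. The causes were not tested.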
